A study of Mus musculus with 6 samples.

Results

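The genes described here are the amino acid arm of the ATF4 pathway: ATF4 with its partner factors and stress effectors, the enzymes that make asparagine, serine, glycine, one-carbon folates and proline, and the cytosolic aminoacyl-tRNA synthetases. They were chosen by name as 40 rows of a deposited table of 21878 genes, with amino acid transporters left out. All 40 were listed, and each reached at least 1 FPKM (fragment counts scaled by transcript length and library size) in all 6 libraries, so all 40 passed the filter on low values. The 9 regulators and stress effectors, 11 enzymes and 20 synthetases are taken in that order.

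The cells were NIH3T3, an established fibroblast line derived from mouse embryos. Every sample carries a radiation injury per the labels. In 3 samples the cells were treated with exosomes, small vesicles that the series title describes as plasma-derived, and in the other 3 with PBS (phosphate-buffered saline), all at 72 h. Radiation dose and plasma donor species are absent from the labels. Nor do they say that libraries of a group were grown as separate cultures, so p-values measure a spread that may be technical. An unirradiated group was not analysed here. The comparison asks what exosomes changed in irradiated fibroblasts. These are bulk samples, in which fewer cells of a kind and less RNA per cell cannot be told apart.

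ATF4 is the transcription factor of the integrated stress response. Kinases that sense amino acid shortage, unfolded proteins, haem shortage or double-stranded RNA phosphorylate the initiation factor eIF2 on its alpha subunit, which lowers protein synthesis in general while the Atf4 mRNA is translated more. ATF4 then pairs with C/EBP family factors on a composite element and activates genes for amino acid synthesis, amino acid uptake and tRNA charging, along with Ddit3 and Trib3, which act in cell death and feedback. Fibroblasts draw heavily on proline and glycine for collagen.

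The genes moved in both directions with exosomes. Of the 40, 17 rose, 7 fell and 16 did not pass the test (limma on log2(FPKM + 1), Benjamini-Hochberg adjusted p under 0.05 over 10274 tested genes), so 24 were called, which is 60% of them. Exosome and PBS libraries differed widely, and 43.8% of all tested genes were called, 25.4% raised and 18.4% lowered. The median log2 change of the 40 was 0.08, beside 0.04 over all tested genes. In 28 of the 40 the exosome libraries lay wholly above (19) or wholly below (9) the PBS libraries, against 55.6% of all tested genes, with 32.0% above and 23.5% below. Raised genes made up 42.5% of the 40 and lowered genes 17.5%, so the raised share was above its background and the lowered share near it. The genes were chosen with earlier results of these data known, so the counts describe the group and set it apart from nothing. Trib3 at the top (log2 change 1.23) and Ddit4 at the bottom (−0.50) span the range. Most called changes were below 1.5-fold in mean FPKM: only Trib3, Pycr1 and Vldlr exceeded it.

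**Figure D1:**
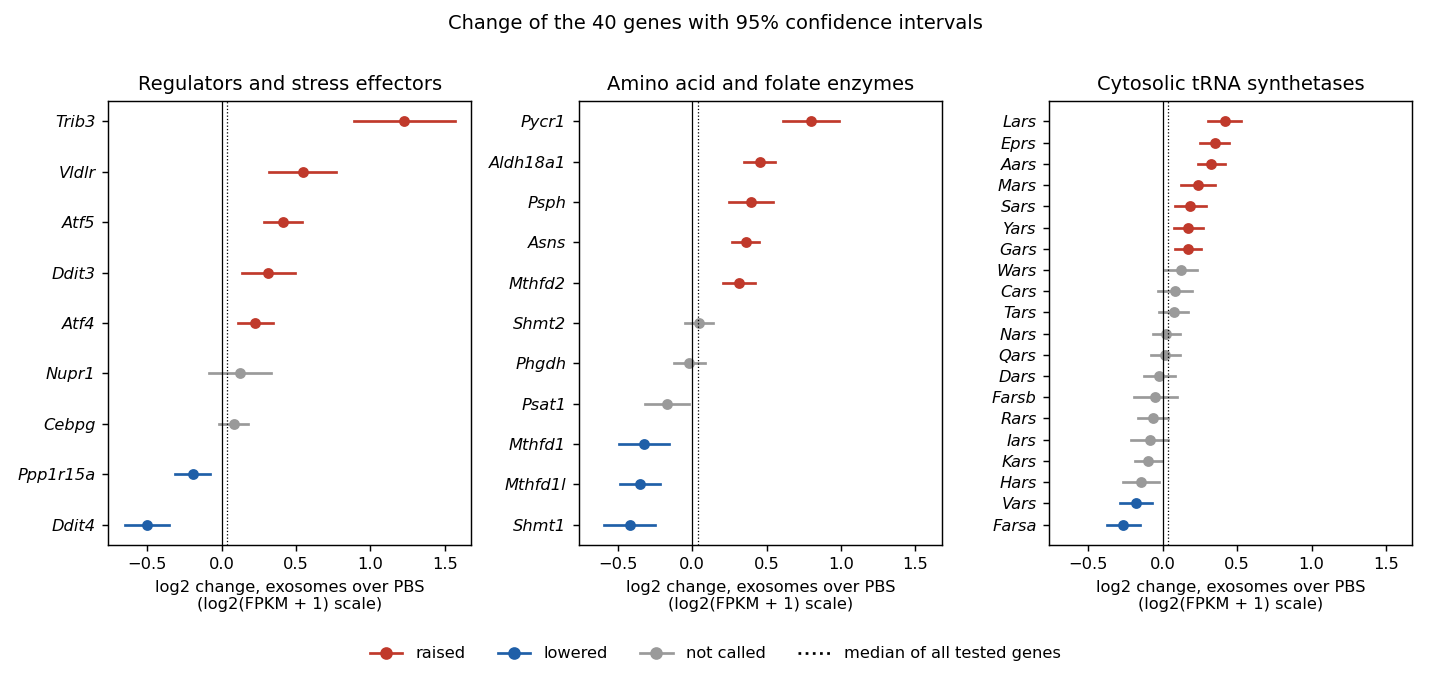
Log2 change of exosomes over PBS on the log2(FPKM + 1) scale for each of the 40 genes (points) with its 95% confidence interval (lines), by role. Red genes were raised (17), blue genes lowered (7) and grey genes not called (16), and the dotted line is the median of all tested genes (0.04).

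The promoters show where the element of ATF4 and C/EBP factors is spelled out in these genes. RefSeq windows (build GRCm38.p6, from 250 bases before to 50 bases after each annotated start) were matched to 33 of the 40 by Entrez identifier, and Cars, Hars, Lars, Nars, Rars, Vars and Wars had no entry. The letters TGATGCAA, searched on both strands, were found in 7 of the 33 genes (21.2%), beside 1.03% of all 27025 genes with a window and 0.623% of the 8351 among them that were tested. The wider form TGATGNAA, which includes every match of the narrow one, was found in 10 of 33 (30.3%), beside 4.51% of all genes and 2.45% of those tested. The members were picked partly as ATF4 targets, so a high share follows from the choice. The stretches below carry the matches, with the matched letters in capitals, each read 5′ to 3′ on the strand of its gene. A match on the opposite strand appears as TTGCATCA, TTTCATCA or TTACATCA.
Asns: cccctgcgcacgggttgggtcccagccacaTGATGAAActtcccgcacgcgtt
Pycr1: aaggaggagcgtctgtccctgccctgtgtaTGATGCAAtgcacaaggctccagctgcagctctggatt
Vldlr: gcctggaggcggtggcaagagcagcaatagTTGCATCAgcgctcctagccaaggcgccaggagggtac
Aars: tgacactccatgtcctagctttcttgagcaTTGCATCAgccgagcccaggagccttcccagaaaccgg
Gars: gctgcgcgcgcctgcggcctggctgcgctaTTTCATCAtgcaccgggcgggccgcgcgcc
Trib3: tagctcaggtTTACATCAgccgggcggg
Yars: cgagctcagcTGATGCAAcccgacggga
Nupr1: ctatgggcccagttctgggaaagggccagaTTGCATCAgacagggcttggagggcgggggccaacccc
Tars: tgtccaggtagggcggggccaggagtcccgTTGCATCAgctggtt
Iars: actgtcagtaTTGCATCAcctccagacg

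These stretches lie at chr6:7693210-7693262 (minus strand) for Asns, chr11:120643814-120643881 (minus) for Pycr1, chr19:27216790-27216857 (plus) for Vldlr, chr8:111033700-111033767 (plus) for Aars and chr6:55037941-55038000 (plus) for Gars. For Trib3 the stretch is chr2:152344029-152344056 (minus), for Yars chr4:129189896-129189923 (plus), for Nupr1 chr7:126625543-126625610 (minus), for Tars chr15:11399659-11399703 (minus) and for Iars chr13:49682127-49682154 (plus). The matches of Vldlr, Aars, Nupr1 and Pycr1 begin 200, 112, 110 and 103 bases upstream of the start, and those of Gars, Asns and Tars 30, 23 and 15 bases upstream. In Yars, Iars and Trib3 the match begins at base 4, 8 and 15 of the transcript, and Aars has a second match in the wider form at base 10. Of the 10 genes with a match, 7 were raised (Aars, Asns, Gars, Pycr1, Trib3, Vldlr and Yars), 0 lowered by limma and 3 not called (Iars, Nupr1 and Tars). None of the 10 was lower at an unadjusted p under 0.05 in limma or at an adjusted p under 0.05 in the authors' deposited table, which lists 6 of the 10 as raised and 0 as lowered. Among the 23 genes with a window and no match, 9 were raised, 6 lowered and 8 not called. The 3 genes with a match that were not called all carry the narrow form TGATGCAA, and of its 7 genes 4 were raised. The median log2 change was 0.25 for the 10, 0.17 for the 7 and 0.02 for the 23. Differences between these groups were not tested. Of all tested genes 25.4% were raised, and calls of other tested genes with a match were not counted. A match is only a run of letters in the window, not a site shown to be bound.

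**Figure D2:**
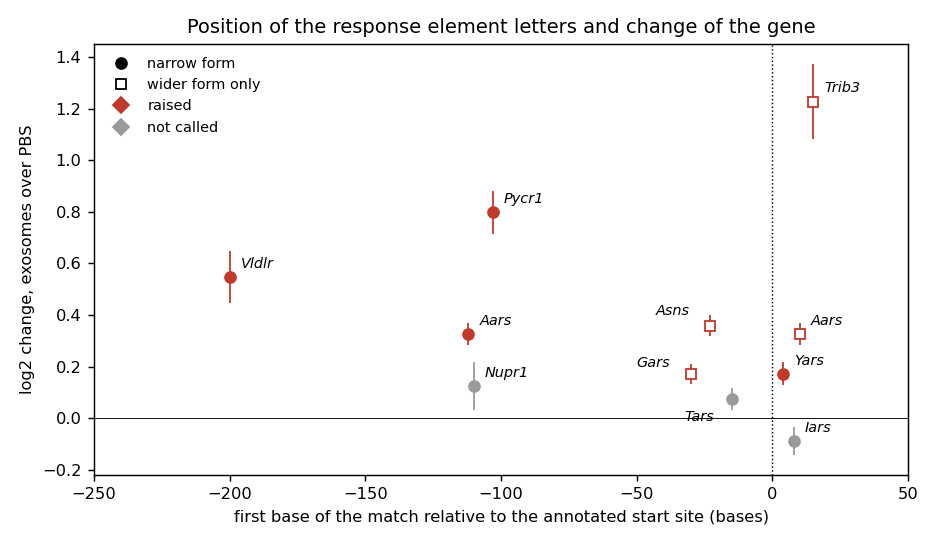
Position of each match relative to the annotated start (x axis, bases) against the log2 change of its gene (y axis, ± SE), with filled circles for TGATGCAA and open squares for matches of the wider form only. The 7 raised genes are red and the 3 genes not called are grey, and Aars appears at both of its matches.

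Among the regulators and stress effectors 5 of 9 rose (Trib3, Atf5, Vldlr, Atf4 and Ddit3) and 2 fell (Ddit4 and Ppp1r15a). The other 2 did not pass (Cebpg and Nupr1). Over the 9 the median log2 change was 0.23, and 77.8% were called, beside 43.8% of all tested genes. Atf4 stood at 259.5, 257 and 254 FPKM in PBS replicates 1 to 3 and at 321, 292 and 289.9 in exosome replicates 1 to 3. The groups did not overlap, and exosome replicate 1 was the highest library. In mean FPKM this was a 1.17-fold rise (log2 change 0.23 ± 0.05 SE, limma adjusted p = 0.00648). Atf5, a close relative of ATF4 that is also controlled in translation, was at 94.2, 100.8 and 93.7 FPKM with PBS and at 123.9, 122.5 and 139 with exosomes. All 3 exosome libraries were above all 3 PBS libraries, 1.34-fold in the mean (log2 change 0.41 ± 0.06, limma adjusted p = 0.000512). Atf4 was the more abundant per transcript length in every library.

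Trib3, a pseudokinase that binds ATF4 and restrains it, changed the most of the 40 genes. It was at 7.97, 12.2 and 8.24 FPKM with PBS and at 22.6, 20.9 and 26.1 with exosomes. PBS replicate 2 was the highest of its group and still far below the lowest exosome library. The mean rose 2.45-fold, from 9.46 ± 2.35 to 23.2 ± 2.615 FPKM (SD, n = 3 libraries each; log2 change 1.23 ± 0.15, limma adjusted p = 0.000482). Ddit3, which encodes the stress factor CHOP, was at 11.2, 12.3 and 9.70 FPKM with PBS and at 14.0, 13.1 and 14.75 with exosomes. The groups lay close without overlapping, and the mean rose 1.26-fold (log2 change 0.31 ± 0.08, limma adjusted p = 0.0106). Exons of Ddit3 and of the synthetase gene Mars overlap by 68 bases on opposite strands in GENCODE vM21, so part of either value could come from the other gene. Vldlr, a lipoprotein receptor and known target of ATF4, was low: 1.24, 1.65 and 1.07 FPKM with PBS and 2.19, 2.70 and 2.25 with exosomes. It rose 1.80-fold in the mean (log2 change 0.55 ± 0.10, limma adjusted p = 0.00228), with no overlap between groups.

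Ddit4 went the other way. This inhibitor of the growth kinase complex mTORC1, which responds to ATF4 and also to hypoxia and glucocorticoids, was at 47.2, 40.9 and 47.0 FPKM with PBS and at 33.3, 29.6 and 31.4 with exosomes. It was 1.43-fold lower in the mean (log2 change −0.50 ± 0.07, limma adjusted p = 0.000357), again without overlap. Ppp1r15a encodes GADD34, which brings a phosphatase to eIF2 and so ends the stress response. Its values were 14.1, 13.5 and 13.8 FPKM with PBS and 11.4, 11.8 and 12.5 with exosomes, a small fall in which all exosome libraries were below all PBS libraries (log2 change −0.20 ± 0.05, limma adjusted p = 0.0125). That call ended without PBS replicate 1 (limma adjusted p = 0.0515, with 0.00583 to 0.0515 over the 13 alternatives), which leaves 1 of the 9 genes lowered.

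Cebpg, a binding partner of ATF4, was at 20.7 to 21.3 FPKM with PBS and 21.8 to 22.8 with exosomes. The groups did not overlap, but the log2 change of 0.08 (95% confidence interval −0.01 to 0.18) did not pass (limma adjusted p = 0.15). Nupr1, a small stress-induced chromatin protein, overlapped between groups at 24.0, 22.4 and 29.1 FPKM with PBS and 29.9, 25.9 and 26.4 with exosomes (log2 change 0.12, 95% confidence interval −0.09 to 0.33, limma adjusted p = 0.302). Without PBS replicate 3 it passed as raised (limma adjusted p = 0.0247, with 0.0247 to 0.685 over the alternatives).

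**Figure D3:**
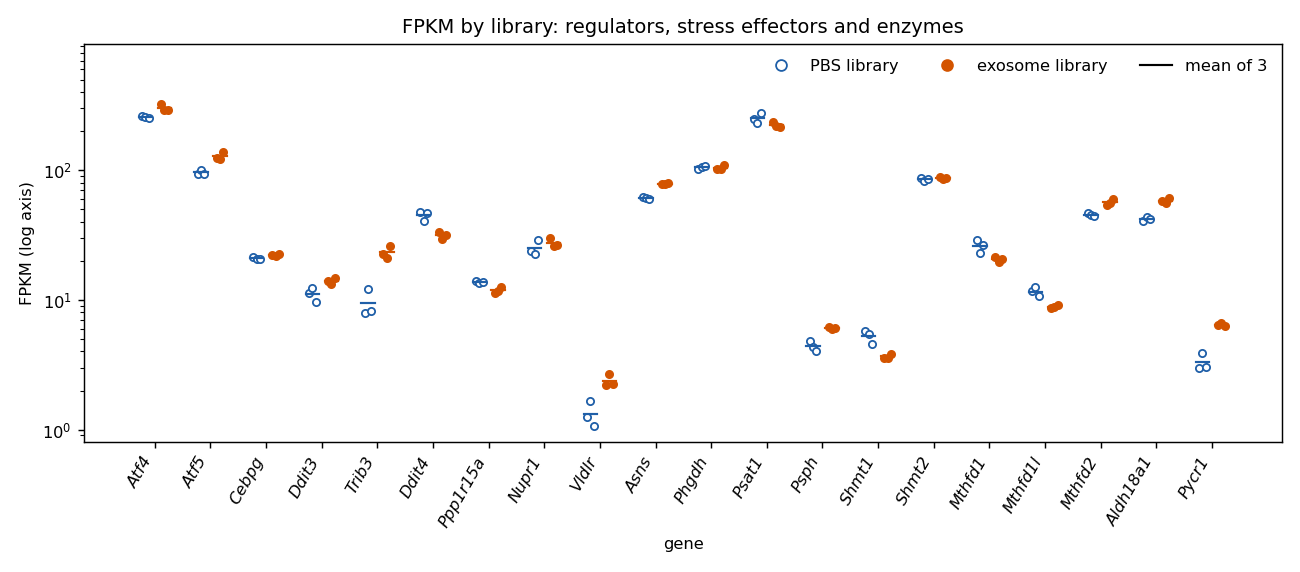
FPKM of the 9 regulators and stress effectors and the 11 enzymes in each library, on a log axis, with open blue points for PBS, filled orange points for exosomes and bars for the mean of 3. Trib3, Vldlr and Pycr1 show the widest separation between groups, while Phgdh, Shmt2, Psat1 and Nupr1 overlap.

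Among the enzymes 5 of 11 rose (Pycr1, Aldh18a1, Asns, Mthfd2 and Psph) and 3 fell (Shmt1, Mthfd1l and Mthfd1). The other 3 did not pass (Phgdh, Psat1 and Shmt2). Over the 11 the median log2 change was 0.04, and 72.7% were called, beside 43.8% of all tested genes. Asns, the asparagine synthetase and a classic ATF4 target, was at 62.1, 61.5 and 59.8 FPKM with PBS and at 78.2, 77.9 and 79.9 with exosomes. The libraries of each group agreed closely, and the mean rose 1.29-fold (log2 change 0.36 ± 0.04, limma adjusted p = 0.000145).

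Both enzymes on the route from glutamate to proline rose. Aldh18a1, which makes the semialdehyde precursor in mitochondria, was at 40.9, 43.7 and 41.9 FPKM with PBS and at 58.0, 55.7 and 60.5 with exosomes. That was 1.38-fold higher in the mean, without overlap (log2 change 0.45 ± 0.05, limma adjusted p = 0.000102). Pycr1, the mitochondrial reductase of the last step, was at 2.97, 3.90 and 3.02 FPKM with PBS and at 6.37, 6.60 and 6.33 with exosomes. PBS replicate 2 was again the highest control, and the mean rose 1.95-fold (log2 change 0.80 ± 0.08, limma adjusted p = 9.88e-05).

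The 3 steps of serine synthesis from glycolysis did not move together. Phgdh, the first enzyme, was at 103, 106.6 and 107 FPKM with PBS and at 102, 101.6 and 109 with exosomes. These values overlapped, and the log2 change was −0.02 (95% confidence interval −0.12 to 0.08, limma adjusted p = 0.759). Psat1, the aminotransferase of the second step, was at 247.7, 231.9 and 274.7 FPKM with PBS and at 234.5, 217.3 and 217 with exosomes. Exosome replicate 1 lay above PBS replicate 2, and the log2 change of −0.17 (95% confidence interval −0.32 to −0.02) missed the threshold (limma adjusted p = 0.0598). Psat1 passed as lowered without PBS replicate 2 (limma adjusted p = 0.018) and with median-ratio scaling (0.0317), while the alternatives reached up to 0.188. Psph, the phosphatase that releases serine, was at 4.83, 4.31 and 4.01 FPKM with PBS and at 6.17, 5.97 and 6.10 with exosomes. It rose 1.39-fold in the mean without overlap (log2 change 0.40 ± 0.07, limma adjusted p = 0.00132). Per transcript length it remained far less abundant than the other two, at a mean of 4.38 FPKM with PBS beside 251 for Psat1 and 105.6 for Phgdh.

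Folate enzymes that take one-carbon units from serine also differed among themselves. In mitochondria, Shmt2, which splits serine into glycine and a one-carbon unit, was at 86.85, 82.3 and 85.05 FPKM with PBS and at 88.85, 85.7 and 87.7 with exosomes. It did not pass (log2 change 0.04, 95% confidence interval −0.05 to 0.14, limma adjusted p = 0.411). Mthfd2, a mitochondrial dehydrogenase and cyclohydrolase of the next step, was at 46.3, 45.2 and 44.7 FPKM with PBS and at 54.2, 56.1 and 60.03 with exosomes. It rose 1.25-fold in the mean (log2 change 0.31 ± 0.05, limma adjusted p = 0.00083). Mthfd1l, which releases formate from the same organelle, was at 11.6, 12.5 and 10.7 FPKM with PBS and at 8.64, 8.75 and 9.20 with exosomes, 1.31-fold lower (log2 change −0.35 ± 0.06, limma adjusted p = 0.0016).

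The cytosolic counterparts fell. Shmt1 was at 5.71, 5.50 and 4.59 FPKM with PBS and at 3.58, 3.57 and 3.84 with exosomes, 1.44-fold lower (log2 change −0.42 ± 0.08, limma adjusted p = 0.00207). Mthfd1, the cytosolic trifunctional folate enzyme, was at 28.8, 23.1 and 26.4 FPKM with PBS and at 21.4, 19.6 and 20.7 with exosomes. PBS replicate 2 came nearest to the exosome libraries without overlap, and the mean was 1.27-fold lower (log2 change −0.33 ± 0.07, limma adjusted p = 0.00659).

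Of the 20 cytosolic tRNA synthetases 7 rose (Lars, Eprs, Aars, Mars, Sars, Yars and Gars), 2 fell (Farsa and Vars) and 11 did not pass, with a median log2 change of 0.05. Called genes made up 45.0% of the synthetases, close to the 43.8% of all tested genes. Each of these enzymes joins 1 amino acid to its tRNAs, and Eprs joins both glutamate and proline. Summed over the 20 genes, their level was 819.9 to 838.6 FPKM in PBS libraries and 864.2 to 891.4 in exosome libraries. The single genes ranged from a log2 change of 0.42 for Lars to −0.26 for Farsa. The count of lowered synthetases was 4 with median-ratio scaling, which adds Hars and Kars, and 1 without exosome replicate 2 or without PBS replicate 1, since Vars then missed the threshold (limma adjusted p = 0.0555 and 0.0608).

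Lars, the leucine enzyme, showed the largest change, with 21.95, 21.0 and 20.4 FPKM in PBS and 27.7, 28.1 and 29.8 in exosome libraries. The mean was 1.35-fold higher without overlap (log2 change 0.42 ± 0.05, limma adjusted p = 0.000196). Eprs was at 48.7, 48.6 and 47.6 FPKM with PBS and at 59.0, 62.6 and 63.9 with exosomes, 1.28-fold higher (log2 change 0.35 ± 0.04, limma adjusted p = 0.000307). Aars, the alanine enzyme, was at 69.7, 69.6 and 66.9 FPKM with PBS and at 85.9, 84.9 and 88.6 with exosomes. It rose 1.26-fold (log2 change 0.33 ± 0.04, limma adjusted p = 0.000305), though its exons share up to 1326 bases with Exosc6 on the same strand in GENCODE vM21, so its level is uncertain. Mars, the methionine enzyme, was at 14.3, 13.6 and 15.1 FPKM with PBS and at 17.3, 16.9 and 16.8 with exosomes, 1.19-fold higher (log2 change 0.24 ± 0.05, limma adjusted p = 0.0051). Smaller rises were found for Sars (mean 58.5 to 66.5 FPKM), Yars (37.4 to 42.2) and Gars (91.3 to 102.9), with log2 changes of 0.18, 0.17 and 0.17 and limma adjusted p of 0.011, 0.0105 and 0.0067. Gars was the most abundant synthetase per transcript length over all 6 libraries, and Mars and Cars were the least.

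Farsa, the catalytic subunit of the phenylalanine enzyme, fell from 29.9, 27.7 and 29.7 FPKM with PBS to 24.85, 23.6 and 23.8 with exosomes. The mean was 1.21-fold lower without overlap (log2 change −0.26 ± 0.05, limma adjusted p = 0.00215). Farsb, the other subunit of the same enzyme, overlapped between groups at 27.2 to 31.3 FPKM with PBS and 26.8 to 30.5 with exosomes (log2 change −0.05, 95% confidence interval −0.20 to 0.10, limma adjusted p = 0.552). The difference between these subunits was not tested. Vars, the valine enzyme, was at 36.3, 33.9 and 35.7 FPKM with PBS and at 30.6, 30.2 and 32.5 with exosomes, 1.14-fold lower (log2 change −0.18 ± 0.05, limma adjusted p = 0.0145). This call ended without exosome replicate 2 (0.0555) or PBS replicate 1 (0.0608), and over the alternatives its adjusted p ran from 0.00603 to 0.0608. Just outside the threshold stood Hars, the histidine enzyme, and Wars, the tryptophan enzyme. Hars was at 28.3, 25.5 and 28.6 FPKM with PBS and at 24.2, 25.2 and 24.7 with exosomes (log2 change −0.14, 95% confidence interval −0.26 to −0.02, limma adjusted p = 0.0519). It passed as lowered without PBS replicate 2 (0.011), with median-ratio scaling (0.0256) and with a filter at 5 FPKM (0.0492), and reached 0.164 at most. Wars was at 17.15, 18.4 and 17.3 FPKM with PBS and at 18.9, 19.2 and 19.6 with exosomes (log2 change 0.12, 95% confidence interval 0.02 to 0.23, limma adjusted p = 0.0598). It passed as raised without PBS replicate 2 (0.034), and the alternatives reached 0.182.

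The other 8 synthetases were Cars, Dars, Iars, Kars, Nars, Qars, Rars and Tars, whose log2 changes lay between −0.10 for Kars and 0.08 for Cars. Kars, the lysine enzyme, was at 45.4 to 46.6 FPKM with PBS and at 42.0 to 43.7 with exosomes. These values did not overlap, but the limma adjusted p was 0.0792 (0.0269 with median-ratio scaling, 0.0269 to 0.187 over the alternatives). For Nars, the asparagine enzyme at a mean of 74.2 FPKM with PBS and 75.5 with exosomes, the 95% confidence interval of the log2 change was −0.07 to 0.12. For Qars, the glutamine enzyme at 26.2 and 26.5 FPKM, it was −0.08 to 0.11.

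**Figure D4:**
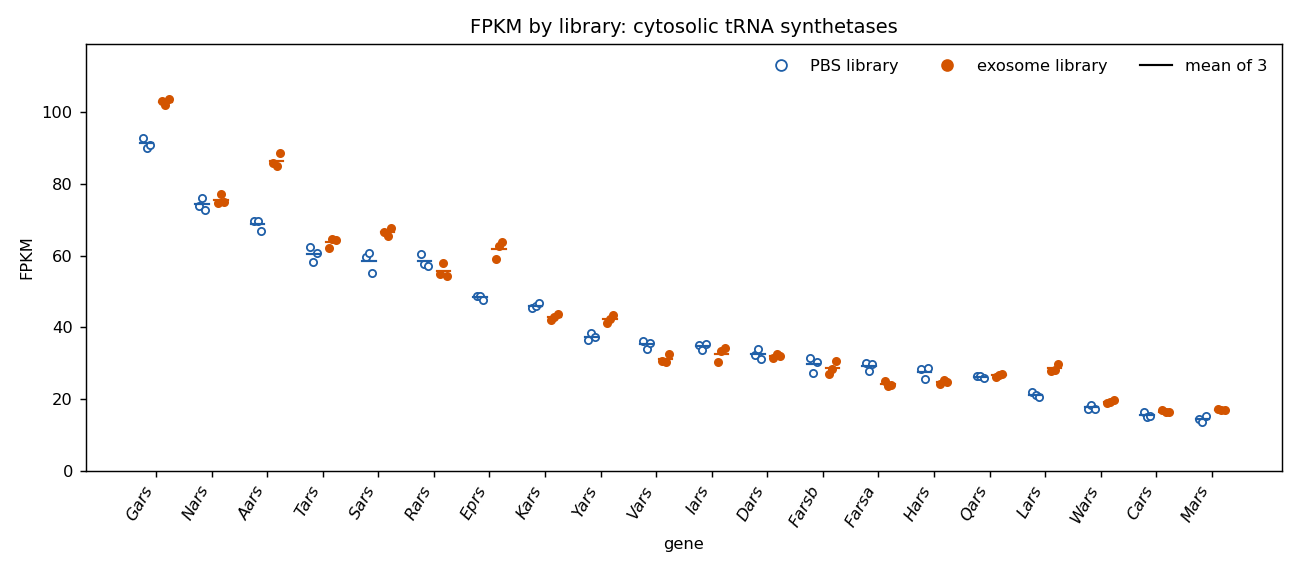
FPKM of the 20 cytosolic tRNA synthetases in each library on a linear axis, ordered by their mean with PBS, with open blue points for PBS, filled orange points for exosomes and bars for the mean of 3. Aars, Eprs, Lars and Gars sit clearly higher with exosomes and Farsa and Vars lower, while Nars, Qars and Dars overlap.

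In mammals 8 of these synthetases assemble with scaffold proteins into one multisynthetase complex. Of those 8, Lars, Eprs and Mars rose, and Dars, Iars, Kars, Qars and Rars did not pass. None was lowered in the limma test, although 1 was lower at an unadjusted p under 0.05 and 1 (Kars) in the authors' deposited table. Of the 12 synthetases outside the complex 4 rose, 2 fell and 6 did not pass. The called shares were 37.5% of the 8 and 50% of the 12, beside 43.8% of all tested genes. The scaffolds of the complex diverged as well. Aimp1 rose from 42.3, 45.85 and 37.5 FPKM to 51.4, 52.3 and 53.5 (log2 change 0.32 ± 0.07, limma adjusted p = 0.00425). Aimp2 fell from 20.8, 21.8 and 19.9 FPKM to 15.4, 16.0 and 15.8 (log2 change −0.38 ± 0.05, limma adjusted p = 0.000338). Eef1e1, the third, was at a mean of 24.3 FPKM with PBS and 22.2 with exosomes (limma adjusted p = 0.0886, and 0.0417 with median-ratio scaling).

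The mitochondrial synthetases that have nuclear genes of their own were mostly less abundant per transcript length. Of 17, 4 rose, 1 fell and 12 did not pass (median log2 change 0.04). The called share was 29.4%, beside 43.8% of all tested genes. With a filter at 5 FPKM 2 rose, Hars2 and Vars2. Both had PBS means below 5 FPKM and passed that filter through the exosome libraries. Hars2 rose from a mean of 4.47 to 5.37 FPKM (limma adjusted p = 0.0117) while Hars did not pass. The 2 genes overlap by up to 195 exonic bases on opposite strands, so their values are uncertain. Vars2 rose from 4.91 to 5.75 FPKM (limma adjusted p = 0.016, and 0.0587 without PBS replicate 1). Neither Hars2 nor Vars2 was past the threshold in the authors' deposited table (adjusted p = 0.0841 and 0.42). That table lists 1 of the 17 as raised and 2 as lowered. Rars2, raised here and named after its value was seen, lost its call in several alternatives (limma adjusted p up to 0.111). Yars2, named because it was the single one that fell, lost its call without exosome replicate 1 (limma adjusted p = 0.0557), exosome replicate 2 (0.055) or PBS replicate 1 (0.0683), which leaves 0 lowered.

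Upstream of ATF4 stand the eIF2 alpha kinases, the GCN2 activator Gcn1l1, eIF2 alpha itself, its constitutive phosphatase subunit and the exchange factor eIF2B. Of these 12 genes 1 rose, 3 fell and 8 did not pass, with a median log2 change of −0.01. The called share was 33.3%, beside 43.8% of all tested genes. Eif2ak2, the kinase PKR that senses double-stranded RNA and is induced by interferon, rose from 8.74, 8.63 and 8.03 FPKM to 11.2, 10.2 and 10.4 (log2 change 0.29 ± 0.06, limma adjusted p = 0.00306). Eif2ak4, the kinase GCN2 that senses uncharged tRNA, fell from 13.5, 12.85 and 12.7 FPKM to 11.3, 11.3 and 11.2 (log2 change −0.19 ± 0.05, limma adjusted p = 0.00903). Ppp1r15b, the constitutive phosphatase subunit, fell from a mean of 30.02 to 26.6 FPKM (limma adjusted p = 0.0181), and Eif2s1, eIF2 alpha, was the third that fell (36.15 to 32.6 FPKM, named after its value was seen, limma adjusted p = 0.019). Without exosome replicate 1 or exosome replicate 2 the count of lowered genes was 1, as Ppp1r15b (0.0623 and 0.0629) and Eif2s1 (0.0574 and 0.0505) no longer passed. Without PBS replicate 1 the call of Eif2s1 ended as well (0.0632). Phosphorylation of eIF2 was not measured here.

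Other genes known as ATF4 targets were called in both directions. Of 14 genes 12 were tested, of which 6 rose, 2 fell and 4 did not pass, with a median log2 change of 0.21. The called share was 66.7%, beside 43.8% of all tested genes, and Gdf15 and Cbs did not reach the filter. Pck2, the mitochondrial PEP carboxykinase, was at 17.5, 18.4 and 16.2 FPKM with PBS and at 28.6, 30.1 and 31.1 with exosomes. It rose without overlap between groups (log2 change 0.75 ± 0.06, limma adjusted p = 1.22e-05). Gpt2, a mitochondrial alanine aminotransferase, rose from 9.24, 10.2 and 9.67 FPKM to 14.5, 14.1 and 15.4 (log2 change 0.55 ± 0.06, limma adjusted p = 8.15e-05). The other 4 raised genes, named after their values were seen, were Cth of cysteine synthesis, the glutathione-degrading Chac1, the hormone gene Fgf21 and the AP-1 repressor Jdp2, with log2 changes of 0.77, 0.43, 0.86 and 0.31. Fgf21 was low, at a mean of 0.463 FPKM with PBS and 1.61 with exosomes. It reached 1 FPKM in the exosome libraries alone, so it was tested only because it was higher there. With a filter at 5 FPKM Fgf21 was not tested and 5 genes rose. Cebpb, a C/EBP partner that also answers growth and inflammatory signals, fell from 117, 106.5 and 123.5 FPKM to 75.1, 79.7 and 84.5 (log2 change −0.53 ± 0.06, limma adjusted p = 0.000218). Atf3, a stress factor that is also an immediate early gene, named after its value was seen, was the second that fell, from a mean of 3.27 to 1.65 FPKM (log2 change −0.70 ± 0.09, limma adjusted p = 0.000376). It was not tested at the stricter filter of 5 FPKM.

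Chaperones of the endoplasmic reticulum and genes of the other unfolded protein response arms, IRE1 with XBP1 and ATF6, were lowered more often than raised. Of 24 genes 23 were tested, of which 2 rose, 9 fell and 12 did not pass, with a median log2 change of −0.10. Their called share in both directions together was 47.8%, near the 43.8% of all tested genes. By direction, 2 of 23 rose and 9 of 23 fell, beside 25.4% and 18.4% of all tested genes. The lowered count ran from 6 to 11 over the alternatives. It was 6 without PBS replicate 1, where Hspa5, Calr and Manf missed the threshold (limma adjusted p = 0.135, 0.0509 and 0.0761). These 3 are named after their values were seen. Hspa5 also lost its call in several other alternatives, such as the replicate block (limma adjusted p = 0.0946). Manf also lost its call without exosome replicate 2 (limma adjusted p = 0.0572) or exosome replicate 3 (0.0644). Dnajb9, a chaperone cofactor induced by XBP1, fell from 19.35, 16.6 and 19.2 FPKM to 11.3, 11.4 and 12.3 (log2 change −0.61 ± 0.07, limma adjusted p = 0.000116). Ern1, which encodes the sensor IRE1 alpha, fell from 4.62, 4.28 and 4.09 FPKM to 3.12, 2.75 and 3.26 (log2 change −0.40 ± 0.07, limma adjusted p = 0.00179). Edem1, which directs misfolded glycoproteins to degradation, rose from 14.6, 15.5 and 15.7 FPKM to 18.6, 19.5 and 19.0 (log2 change 0.30 ± 0.05, limma adjusted p = 0.00104). Sel1l of the same degradation pathway, named after its value was seen, was the second that rose (log2 change 0.24 ± 0.05, limma adjusted p = 0.00639). The difference between this list and the ATF4 genes was not tested.

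The remaining folate, glycine cleavage and proline enzymes also split. Of 20 genes 17 were tested, of which 4 rose, 7 fell and 6 did not pass, with a median log2 change of −0.08. Their called share was 64.7%, beside 43.8% of all tested genes, and with a filter at 5 FPKM 1 rose. Atic and Gart, which use one-carbon folates in purine synthesis, fell. Atic was at 67.8, 65.9 and 65.0 FPKM with PBS and at 48.9, 50.2 and 56.7 with exosomes (log2 change −0.35 ± 0.06, limma adjusted p = 0.00127). Gart was at 18.1, 17.85 and 16.8 FPKM with PBS and at 12.8, 14.1 and 14.7 with exosomes (log2 change −0.32 ± 0.06, limma adjusted p = 0.00227). Mthfs, which returns stored folate to the active pool, rose from 0.684, 0.912 and 1.11 FPKM to 1.53, 1.83 and 1.70 (log2 change 0.50 ± 0.09, limma adjusted p = 0.00235). Among its PBS libraries only replicate 3 reached 1 FPKM, so Mthfs passed the filter through the exosome libraries. Mthfd2l, named after its value was seen, fell from a mean of 5.79 to 4.78 FPKM (limma adjusted p = 0.0303). Its call was lost in several alternatives (limma adjusted p up to 0.0963).

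The authors' deposited table, which compares normalized counts rather than FPKM, lists 15 of the 40 genes as raised and 9 as lowered at an adjusted p under 0.05. Of all genes tested here, 36.5% were past the threshold there, 16.8% raised and 19.8% lowered. It shares 22 of the 24 calls made here, all 22 in the same direction. Sars and Yars were raised here but not in the authors' deposited table (adjusted p = 0.115 and 0.134). Hars and Kars were not called here and are listed as lowered in the authors' deposited table (adjusted p = 0.0219 and 0.0436). Trib3 has a fold change of 2.29 and Pycr1 one of 1.83 in the authors' deposited table, beside 2.45 and 1.95 in mean FPKM here. Atf4 is just inside the threshold in the authors' deposited table (fold change 1.11, adjusted p = 0.0463), beside 1.17 in mean FPKM here. The deposited table gives a median log2 of the fold change of −0.01 over the tested genes, against 0.04 in FPKM, and 0.02 against 0.08 over the 40. Of the 40 genes 35 have the same sign in the authors' deposited table. The group means of normalized counts in the authors' deposited table ran from 269.5 for Shmt1 with exosomes to 13721.5 for Eprs with exosomes.

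**Figure D5:**
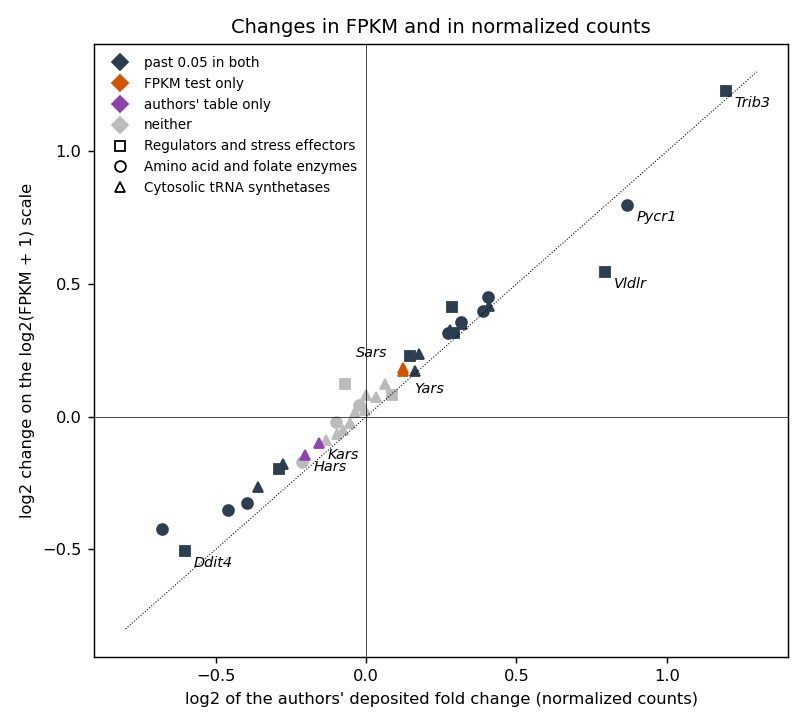
Log2 of the authors' deposited fold change in normalized counts (x axis) against the log2 change on the log2(FPKM + 1) scale (y axis) for the 40 genes, with the dotted line marking equal values. Dark symbols are past 0.05 in both (22 genes), orange symbols in the FPKM test alone (Sars and Yars), purple symbols in the authors' deposited table alone (Hars and Kars), and grey symbols in neither.

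Levels of marker genes were those of fibroblasts. All 10 fibroblast markers were tested, summing to 4908 to 5496 FPKM with PBS and 6524 to 6724 with exosomes. They did not move together: 6 rose, 2 fell (Fn1 and Pdgfrb, limma adjusted p = 0.0116 and 0.0223) and 2 did not pass (Vim and Thy1). The called share was 80%, beside 43.8% of all tested genes. Leukocyte markers summed to 3.47 to 4.83 FPKM with PBS and 1.85 to 2.56 with exosomes, with Cd3e at 0 in all libraries. Within that sum Csf1r had a mean of 1.92 FPKM with PBS and 0.295 with exosomes, while Cd68 had 1.90 and 1.81. Erythroid and platelet markers summed to 2.65 to 4.99 and 3.58 to 4.33 FPKM, with Alas2 at 0, endothelial markers to at most 0.357 FPKM and epithelial markers to at most 0.527, with Krt5 at 0. The part of these differences in the results above was not tested. Exons of 14 of the 40 genes overlap another gene on the opposite strand in GENCODE vM21 (Aars, Atf5, Cars, Cebpg, Ddit3, Farsb, Hars, Mars, Mthfd1, Ppp1r15a, Psph, Shmt1, Shmt2 and Yars). The libraries were stranded, but the strand setting of the counting is unknown here, so the levels of these 14 are uncertain. Phgdh and Kars each have an annotated pseudogene that could share reads with it.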

How the data were processed

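RNA from 3 exosome-treated and 3 PBS-treated samples of irradiated NIH3T3 cells was sequenced from TruSeq Stranded mRNA libraries on an Illumina HiSeq, as the labels' protocols state. Tools listed in the submitters' processing notes, without versions or roles, are DESeq, HTSeq, Cufflinks, StringTie, HISAT2, Bowtie2, SAMtools and Trimmomatic, with the build mm9. Per library the authors deposited expression values read here as FPKM, an inference from Cufflinks and from unequal column sums, since the headers say only expression. Per the file headers the table also holds a normalized count signal (DESeq's column names) as a mean of each group, a fold change (ratio) and a p-value with its adjusted p-value. Group totals of the authors' deposited normalized counts were 20341541 (PBS) and 19824812 (exosomes). Counts per library were not used here, so no count model was fitted. In 27 rows a gene name turned into a date was repaired through its Entrez identifier. Each library column carries the number that describes its sample in the labels. No 2 libraries held identical values.

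Genes reaching 1 FPKM in 3 libraries were tested on log2(FPKM + 1) with limma 3.58.1 in R 4.3.3 (trend, robust, group only, two-sided), Benjamini-Hochberg adjusted over all 10274 genes, and called at an adjusted p under 0.05. This scale understates changes of low genes. The fit was tested on simulated data. Members and lists were chosen with earlier results of these data known. Every member is named. Library values are given for Atf4, Ddit3, Trib3, Asns, Phgdh, Psat1, Psph, Shmt2, Mthfd2, Aldh18a1, Pycr1, the 5 smallest p of each role group and the 2 genes on either side of the threshold, and further members were added after their values were seen. Up to 3 genes of smallest p are named from each other list. A few items of these lists are not reported here. Same-numbered libraries did not deviate together.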

Additional observations from a re-analysis of the deposited data

How the results depend on the processing

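Each result was recomputed under 13 alternatives: a pseudocount of 0.1, no filter, a filter at 5 FPKM, upper quartile and median-ratio scaling, limma without trend and robust estimation, a replicate block, and each of the 6 libraries left out. Of the 24 called genes 22 kept direction and call in every alternative that tested them, the exceptions being Ppp1r15a and Vars. Vldlr and Shmt1 were not tested at 5 FPKM. Pycr1 and Psph reached 5 FPKM in the exosome libraries alone. That filter kept them only because they were higher there, so their calls under it add no support. The raised count of the 40 ran from 16 to 18 and the lowered count from 5 to 10.

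The lowered synthetases numbered 4 with median-ratio scaling, beside 2, because Hars and Kars were added. Leaving out 1 library gave 1 to 3 lowered synthetases and 1 to 2 lowered regulators. Median-ratio scaling turned the sign of the uncalled Nars (log2 change −0.0110) and Qars (−0.0163), and leaving out PBS replicate 2 that of the uncalled Dars (0.0087, with −0.0503 to 0.0087 over the libraries left out). Over all genes that scaling gave 2250 raised and 2276 lowered, against 2612 and 1889, and a median log2 change of 0.01 against 0.04.

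With the replicate block 17 of the 40 genes were raised and 7 lowered, as without it, and over all genes 2288 were raised and 1626 lowered. Of the genes named, it ended the calls of Eif2s1, Rars2 and Hspa5 (limma adjusted p = 0.0554, 0.0574 and 0.0946). Deviations of same-numbered libraries correlated at −0.12, −0.02 and −0.29 across genes, and those of differently numbered libraries at −0.19 to 0.29. These values gave no sign of pairing by number, but correlations of this kind cannot decide whether samples were paired. The precision rests on 3 libraries a group, with no counts per library used.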
